A study of Mus musculus with 4 samples.

Results

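Interferon response genes are the genes that cells switch on when an interferon binds its receptor, together with the receptors and factors that carry the signal. The list held 44 genes, named for their place in the pathway at a time when earlier results of these data were known. A member was measured where a probe set of the array was annotated to that gene alone, and where several were, the brightest on average stood for the gene. This gave 38 of the 44 members, among 19937 genes tested in all. Isg15, Gbp2, Igtp, Irgm2 and Ifi47 lay on probe sets annotated to more than 1 gene and Ifi44 had no annotated probe set, so no value is given for these 6.

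The arrays compared early-onset with late-onset mouse gliomas. The tumours arose in C57/Bl6 mice after a retrovirus expressing PDGF-B together with EGFP was injected at embryonic day 14, and animals were kept until they showed symptoms. Every sample was made of EGFP-positive cells sorted by flow cytometry from dissociated tumours, so both groups carried the same transgene and neither was a normal tissue control. The early-onset, low-grade group held 2 arrays, each from a pool of cells of 2 tumours (pool 1 and pool 2), and the late-onset, high-grade group held 2 arrays, each from 1 tumour (tumour 1 and tumour 2). No source used here gives the age of the animals at onset. A pool averages over tumours and a single tumour does not, so the spread between pools and the spread between tumours are not the same kind of spread.

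Type I interferons, which include interferon beta and the interferon alpha family, bind the receptor made of IFNAR1 and IFNAR2, and interferon gamma binds IFNGR1 and IFNGR2. Janus kinases then activate STAT proteins. Complexes that hold STAT2 and IRF9 bind the interferon-stimulated response element in the promoters of target genes, and the gamma-activated site is a further element of such promoters. The targets encode sensors of foreign nucleic acid, proteins that block viral entry, RNA or protein synthesis, and GTPases that attack vacuoles. In brain, microglia are a major cell type that makes and answers interferons, and glial and vascular cells answer them too.

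The response element is visible in the promoters of members that lay on both sides of the comparison. The windows below come from RefSeq on GRCm38.p6 and run 5′ to 3′ on the strand of the gene, with capitals marking each match to the letters GAAA, any 2 bases and GAAA, or to their reverse complement. Trim30a (chr7:104465194-104465443, minus strand) and Bst2 (chr8:71537473-71537722, minus strand) fell in late-onset cells, Ifit3 (chr19:34583279-34583528, plus strand) had a lower mean that missed the threshold, and Irgm1 (chr11:48871421-48871670, minus strand) had the highest difference of all members. Each of these 4 sequences is the 250 bases before an annotated start. Trim30a has 2 windows in RefSeq, and in the one not shown the match lies just after the start.
Trim30a: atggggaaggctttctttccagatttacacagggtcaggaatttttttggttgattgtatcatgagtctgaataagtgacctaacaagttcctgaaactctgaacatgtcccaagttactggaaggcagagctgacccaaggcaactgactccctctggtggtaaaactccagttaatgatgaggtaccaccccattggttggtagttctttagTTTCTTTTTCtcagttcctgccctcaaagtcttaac
Bst2: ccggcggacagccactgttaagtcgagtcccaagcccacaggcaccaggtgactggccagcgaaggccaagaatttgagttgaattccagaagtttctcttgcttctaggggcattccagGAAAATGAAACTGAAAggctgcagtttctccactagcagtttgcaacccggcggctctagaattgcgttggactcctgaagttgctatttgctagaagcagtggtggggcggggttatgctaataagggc
Ifit3: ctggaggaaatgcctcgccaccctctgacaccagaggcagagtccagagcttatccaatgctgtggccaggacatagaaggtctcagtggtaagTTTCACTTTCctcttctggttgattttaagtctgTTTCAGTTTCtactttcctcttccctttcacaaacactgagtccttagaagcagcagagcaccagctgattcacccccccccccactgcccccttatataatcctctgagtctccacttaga
Irgm1: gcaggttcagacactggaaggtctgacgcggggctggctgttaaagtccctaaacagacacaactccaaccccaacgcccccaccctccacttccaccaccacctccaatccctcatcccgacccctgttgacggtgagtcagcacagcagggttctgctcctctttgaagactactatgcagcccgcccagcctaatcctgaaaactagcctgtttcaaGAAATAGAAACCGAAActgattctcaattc
In Bst2 and Irgm1 a pair of matches overlapped, which gives the longer capital runs. In Ifih1 (chr2:62646206-62646235, minus strand), which fell, and Eif2ak2 (chr17:78882535-78882564, minus strand), which had a higher mean, the match lay just after the start, and 30 bases around it are shown.
Ifih1: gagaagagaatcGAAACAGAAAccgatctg
Eif2ak2: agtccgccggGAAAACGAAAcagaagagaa

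Promoter windows of 300 bases, from 250 bases before to 50 after the start, were listed for 34 of the 44 members. A match to this response element on either strand was found for 19 of these 34 genes (55.9%), against 3.89% of the 15613 tested genes with a window. The gamma-activated site motif TTCNNNGAA, which is its own reverse complement, was found for 12 of 34 (35.3%), against 8.99%. Matches of the 2 motifs could overlap. Among measured members with a window, the 15 with a response element match had a median difference of -0.39 (late-onset minus early-onset, log2) and 3 fell, and the 13 without had a median of -0.19 and 1 fell. That 1 gene was Ifit2, whose windows held no match to these letters. Over all tested genes with a window, 9.23% of the 607 genes with a match were lower and 5.77% higher, against 8.06% lower and 6.58% higher among the 15006 without. These shares are descriptions, and a match is not shown to be a bound site.

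The differences below were estimated with limma, fitted over all 19937 genes, with Benjamini-Hochberg adjustment over all of them and a threshold of 0.05. Values are log2 probe set summaries, so a difference of 1 is a 2-fold change. In late-onset cells 5 of the 38 measured members fell and 0 rose: Trim30a, Parp14, Bst2, Ifih1 and Ifit2. That is 13.2% of the members, while the fit called 14.7% of all genes in either direction, 8.12% lower and 6.59% higher. The share of members called was thus near that of all genes. The direction of the members was more uneven than the calls. The mean of 33 of the 38 was lower in late-onset cells, against 51.7% of all genes, and the median difference was -0.36, against -0.01 over all genes. At adjusted thresholds of 0.1 and 0.01, 12 and 3 members were lower and 1 and 0 higher, against 11.9% and 2.68% of all genes lower and 10.9% and 1.45% higher. At an unadjusted p under 0.05, 19 members (50.0%) were lower and 1 was higher, against 15.4% and 14.5% of all genes. The 2 groups did not overlap in 28 members, 25 with late-onset cells lower and 3 with late-onset cells higher, against 30.4% and 28.5% of all genes. Members share arrays and regulators, so these counts are not independent observations.

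**Figure D1:**
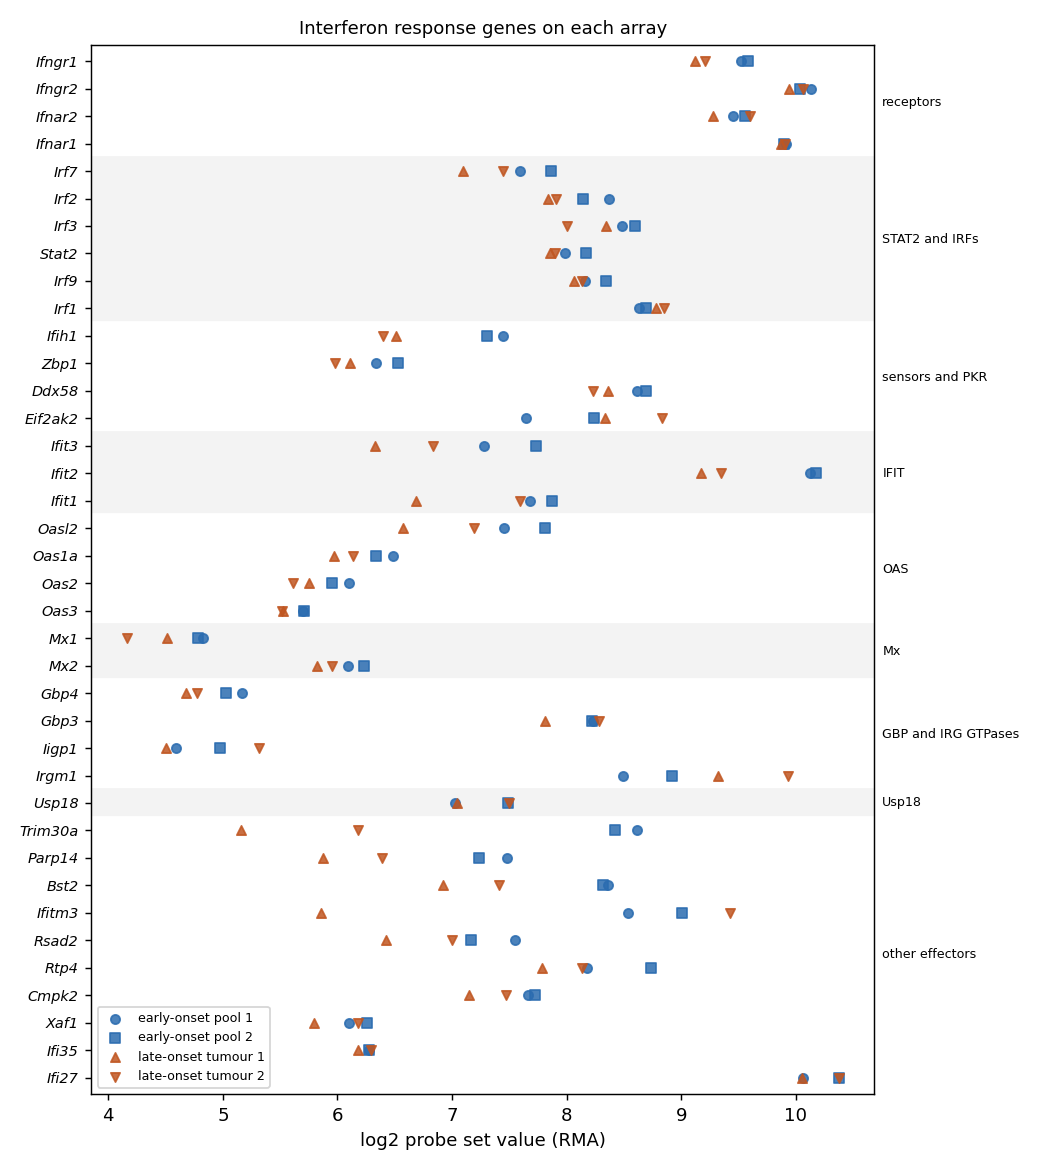
Log2 probe set values of the 38 measured interferon response genes on each of the 4 arrays, grouped by role; circles and squares are the early-onset pools, triangles the late-onset tumours. The group means of Trim30a, Parp14 and Bst2 lie more than 1 log2 unit apart, Irgm1 and Eif2ak2 lie higher in both tumours, and Ifitm3 spans 5.85 to 9.43 between the tumours.

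**Figure D2:**
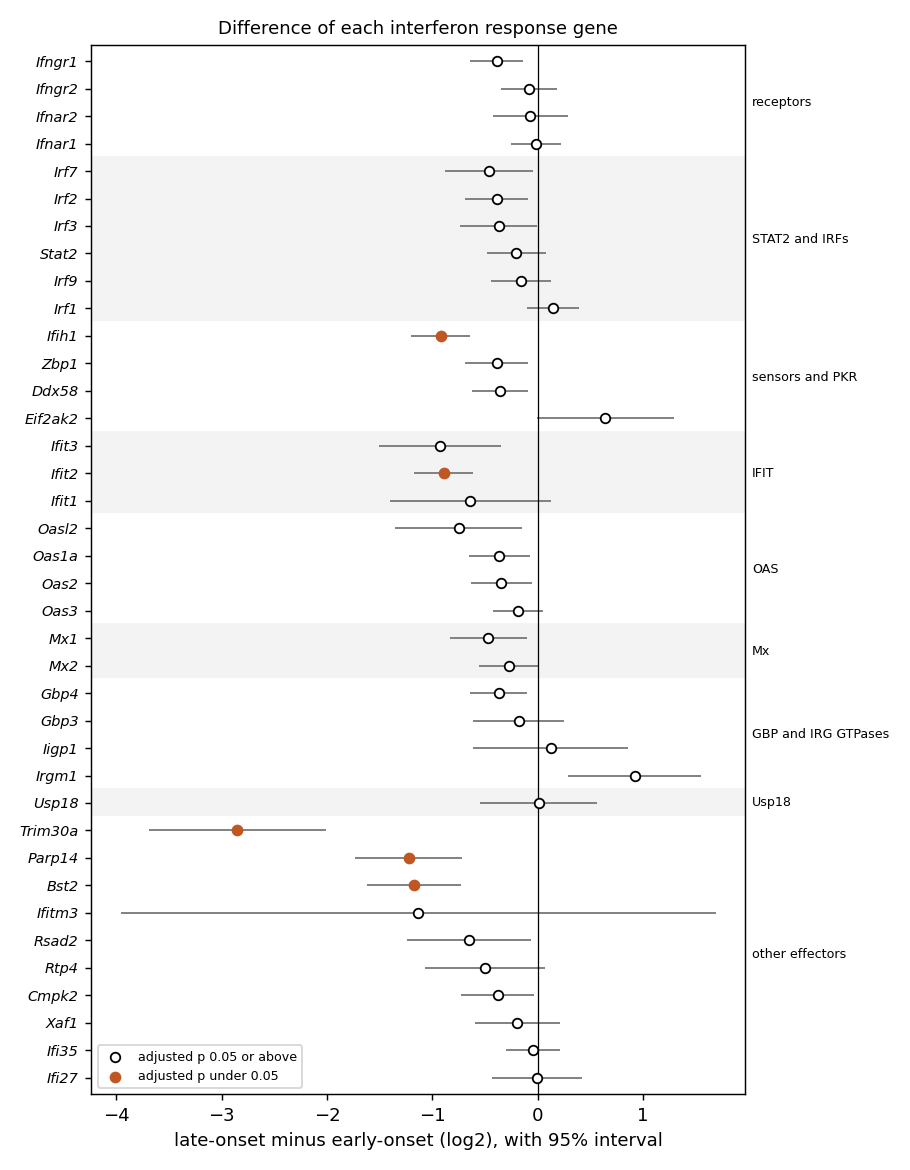
Late-onset minus early-onset difference of each member (log2) with its 95% interval from the limma fit, in the same order; filled points have an adjusted p under 0.05. The 5 filled points all lie below 0, and the widest interval is that of Ifitm3, from -3.96 to 1.69.

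Markers of some other cell types also differed between the groups, and those of others differed little. Of 25 measured microglia and macrophage markers 24 fell and 0 rose, with a median difference of -3.76, and the remaining marker, Tmem119, stood at -1.13 (adjusted p 0.0688). Their summed linear signal was 59087 and 50235 in the pools and 2949 and 5014 in the tumours, and Cx3cr1, the microglial fractalkine receptor gene, read 11.11 and 10.91 against 6.89 and 7.15. In bulk samples fewer cells of a type and less RNA per cell cannot be told apart. Pericyte and fibroblast genes set tumour 2 apart. The summed linear signal of 10 such markers was 994, 976, 866 and 5829 in pool 1, pool 2, tumour 1 and tumour 2. Markers of T and NK cells were dim on all arrays, with list medians from 5.04 to 5.11, and 1 of 14 fell, Cd4 (-0.44). Of 9 plasmacytoid and dendritic cell markers 1 fell, Itgax (-2.91), a gene that macrophages also express. Of 4 measured monocyte markers 0 were called, with 1 at an unadjusted p under 0.05 (Ccr2, -0.39, adjusted p 0.13). Of 11 B cell and granulocyte markers Blnk (-2.59) and Csf3r (-1.84) fell. The other 9 were not called, and the median difference of this list was -0.14. Among 11 endothelial markers Erg rose (1.58) and Slco1a4 fell (-1.44). The median of 12 oligodendrocyte progenitor markers lay between 11.43 and 12.04 on the 4 arrays. It was 11.69 and 11.43 in the tumours and higher in both pools. All 12 means were lower in late-onset cells, at a median difference of -0.46, against -0.36 for the interferon response genes. These markers do not show the EGFP label itself. Of these 12, 4 fell (C1ql1, Cspg5, Cacng4 and Pdgfra, by 0.84 to 0.45). Of 12 astrocyte markers 6 fell, led by Slc4a4 (-2.28), and of 12 neuron markers 7 fell and 1 rose, led by Tubb3 (1.86) and Snap25 (-1.85). Of 7 mature oligodendrocyte markers Mobp (-2.62) and Mbp (-1.45) fell. The only call among 10 pericyte and fibroblast markers was Rgs5, which fell (-0.56). The means of 9 of these 10 were higher in late-onset cells, at a median difference of 1.05. Against the mean of the pools, their median stood at -0.16 in tumour 1 and 2.53 in tumour 2. The part of any of these cells in the differences of interferon response genes was not tested.

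The receptors differed little between the groups. Ifnar1, the first chain of the type I receptor, read 9.91 and 9.89 in the pools and 9.87 and 9.91 in the tumours, a difference of -0.01 (95% interval -0.25 to 0.22, adjusted p 0.944). Ifnar2, the other chain, stood at -0.07 (-0.42 to 0.29) and Ifngr2, the signalling chain of the interferon gamma receptor, at -0.08 (-0.35 to 0.19). For these 3 genes the groups overlapped, and the intervals leave out a 2-fold change in either direction. Ifngr1, the ligand-binding chain, read 9.52 and 9.58 in the pools and 9.12 and 9.21 in the tumours. Both tumours lay below both pools, but the difference of -0.39 (SE 0.10) did not pass (adjusted p 0.0623). It passed with cyclic loess (0.0393), with quantile normalization (0.0440) and among genes above the median level (0.0408).

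None of the 6 transcription factor genes passed the test. At an unadjusted p under 0.05, 3 of them were lower, against 15.4% of all genes. Stat2 and Irf9, whose products act together in the type I response, stood at -0.20 (adjusted p 0.301) and -0.15 (0.428). Irf7, the factor that amplifies interferon alpha production, read 7.59 and 7.86 in the pools and 7.09 and 7.45 in the tumours (-0.46, adjusted p 0.139). Irf2, which opposes IRF1 at shared sites, stood at -0.39 (0.0927), and Irf3, which switches on interferon beta, at -0.37 (0.166). Irf1, an activator downstream of interferon gamma, had the only higher mean of the 6, at 0.15 (adjusted p 0.384). It had a further probe set, which stood at -0.12, so the probe sets of Irf1 disagree in sign. The groups did not overlap in any of the 6 genes, with late-onset cells lower in 5 and higher in 1. Over all genes these shares were 30.4% and 28.5%. Each of the 6 differences was under 0.5.

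Among the sensors Ifih1 fell. It encodes MDA5, which detects long double-stranded RNA. Probe set 10483110 read 7.45 and 7.30 in the pools and 6.51 and 6.40 in the tumours, and the tumours lay closely together well below the pools. The difference was -0.92 (SE 0.11, adjusted p 0.00866), a 1.89-fold lower level. Ddx58, which encodes the RNA sensor RIG-I, stood at -0.36 (adjusted p 0.0856) and Zbp1, a sensor of Z-form nucleic acid, at -0.39 (0.0924). Both had tumours below pools without passing the test.

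Eif2ak2 lay on the other side. It encodes PKR, the kinase that stops protein synthesis when it binds double-stranded RNA. It read 7.64 and 8.24 in the pools and 8.34 and 8.83 in the tumours. The lower tumour stood just above the higher pool, and the difference of 0.64 (SE 0.26) did not pass (adjusted p 0.17). It was 0.34 without pool 1 and 0.94 without pool 2.

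The 3 IFIT genes, whose products bind foreign RNA and block its translation, all had lower means. Ifit2 (probe set 10462613) read 10.13 and 10.17 in the pools and 9.17 and 9.35 in the tumours, a difference of -0.89 (SE 0.11, adjusted p 0.00938). The pools and the tumours were each tightly placed. Ifit3, the next protein-coding gene on chromosome 19, read 7.27 and 7.73 against 6.33 and 6.83. Its difference was about as large (-0.92) but its spread was larger (SE 0.23), and it did not pass (adjusted p 0.0566). Ifit1 read 7.68 and 7.87 against 6.69 and 7.60, so tumour 2 stood close to the pools and tumour 1 about 1 log2 unit below them. Its difference was -0.64 (adjusted p 0.234), or -1.09 without tumour 2 (0.0173) and -0.18 without tumour 1 (0.457). Ifit1 and Ifit3 have close copies in the mouse genome, and how their signal divides between copies is uncertain.

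The oligoadenylate synthetase genes make the second messenger that activates an antiviral ribonuclease, and 0 of 4 passed. At an unadjusted p under 0.05, 3 of the 4 were lower, against 15.4% of all genes. Oasl2 moved furthest. It read 7.45 and 7.81 in the pools and 6.57 and 7.19 in the tumours (-0.75, SE 0.24, adjusted p 0.104), and passed without tumour 2 (-1.06, 0.0345). Oas1a stood at -0.36, Oas2 at -0.34 and Oas3 at -0.19 (adjusted p 0.105, 0.112 and 0.261). In all 4 genes both tumours lay below both pools, as in 30.4% of all genes. The paralogs of this family are similar in sequence, which limits how far their signals are separate.

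The Mx genes encode dynamin-like GTPases, and laboratory strains such as C57BL/6 are known to carry a defective Mx1. Mx1 read 4.83 and 4.79 in the pools and 4.52 and 4.16 in the tumours, a dim signal that lay under the lower quartile of genes. The difference was -0.47 (adjusted p 0.0968), and -0.64 without tumour 1 (0.0371). Mx2 stood at -0.28 (adjusted p 0.174).

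The GBP and IRG GTPases, which answer mainly to interferon gamma and attack vacuoles that hold microbes, did not share a direction. Irgm1, a regulator of the IRG family and of autophagy, read 8.49 and 8.92 in the pools and 9.32 and 9.93 in the tumours. Both tumours lay above both pools, and the difference of 0.92 (95% interval 0.29 to 1.55) was the highest of all members, but it did not pass (adjusted p 0.0689). It passed without tumour 1 (1.23, adjusted p 0.0286) and was 0.62 without tumour 2 (0.144). Gbp4 stood at -0.37 (adjusted p 0.0839), Gbp3 at -0.18 (0.555) and Iigp1, an effector of the IRG family, at 0.12 (0.829). Iigp1 read 4.59 and 4.98 in the pools and 4.50 and 5.31 in the tumours, so the tumours bracketed the pools. The other 4 GTPase genes of the list were among the 6 without a value.

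Usp18, which removes ISG15 from proteins and damps the type I receptor, stood at 0.01 (95% interval -0.54 to 0.57, adjusted p 0.98). It read 7.03 and 7.48 in the pools and 7.04 and 7.50 in the tumours. The gap within each group was far larger than the gap between the groups.

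Among the other effectors 3 of 10 fell, against 8.12% of all genes, and these held the largest falls of the list. Trim30a, an interferon-induced gene that restrains Toll-like receptor signalling, fell furthest. Probe set 10566358 read 8.62 and 8.42 in the pools and 5.16 and 6.18 in the tumours, a difference of -2.85 (SE 0.33, adjusted p 0.00832) or a 7.21-fold lower level. Both tumours lay more than 2 log2 units below both pools, and tumour 2 stood 1.02 above tumour 1. Trim30a has close relatives beside it in the genome, so its probe set may read more than 1 of them.

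Parp14, which encodes an ADP-ribosyltransferase of macrophage and interferon signalling, read 7.48 and 7.23 in the pools and 5.87 and 6.39 in the tumours on probe set 10439249. The difference was -1.22 (SE 0.20, adjusted p 0.019), a 2.33-fold lower level. Bst2, which encodes tetherin, a protein that holds budding virus on the cell surface, read 8.36 and 8.31 in the pools and 6.92 and 7.41 in the tumours on probe set 10579532. It fell by 1.17 (SE 0.18, adjusted p 0.0155), a 2.25-fold lower level. In both genes the tumours differed from each other by about 0.5 and lay below both pools.

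Ifitm3, which blocks the fusion of virus with endosomes, separated the 2 late-onset tumours. It read 8.53 and 9.01 in the pools, 5.85 in tumour 1 and 9.43 in tumour 2. The group difference of -1.13 (SE 1.12, adjusted p 0.568) therefore described neither tumour. It was -2.92 without tumour 2 (adjusted p 0.00582) and 0.66 without tumour 1 (0.133), so its direction rests on 1 tumour. The gap of 3.58 between the tumours was the largest of any member. Of the 10 pericyte and fibroblast markers all 10 were higher in tumour 2, at a median gap of 2.68, against 50.5% of all genes. Also higher were 7 of 7 mature oligodendrocyte markers (median gap 0.89) and 21 of 25 microglia and macrophage markers (0.75). So were 10 of 11 endothelial (0.58) and 10 of 12 astrocyte markers (0.32). The pools differed in some of these lists too. Of the astrocyte markers 12 of 12 were higher in pool 2 than in pool 1 (median gap 0.34), and of the mature oligodendrocyte markers 6 of 7 (0.41). For endothelial markers this was 1 of 11 (-0.69), for microglia and macrophage markers 3 of 25 (-0.25) and for pericyte and fibroblast markers 4 of 10 (-0.09). T and NK cell (3 of 14 higher), B cell and granulocyte (3 of 11) and oligodendrocyte progenitor markers (4 of 12) were mostly lower in tumour 2. The part of any of these cells in the level of Ifitm3 was not tested.

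The other 6 effectors did not pass. Rsad2, which encodes viperin, and the nucleotide kinase gene Cmpk2, neighbours on chromosome 12, stood at -0.65 and -0.38 (adjusted p 0.135 and 0.141), with tumours below pools in both. Rtp4 stood at -0.50 (0.215). Xaf1, a gene linked to cell death, stood at -0.19, Ifi35 at -0.04 and Ifi27 at -0.00 (adjusted p 0.498, 0.826 and 0.991). For these last 3 genes the groups overlapped.

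Calls were lost when either pool was left out, among the members and over all genes. Without pool 1, all 5 calls were lost (adjusted p 0.0509 for Trim30a, 0.0591 for Ifih1, 0.0582 for Ifit2, 0.0838 for Bst2 and 0.101 for Parp14). Without pool 2, Ifit2 (0.0675), Bst2 (0.0856) and Parp14 (0.0744) were lost. Without pool 1, 3.07% of all genes were lower and 1.66% higher, and without pool 2, 2.80% were lower and 1.46% higher. The differences themselves stayed between -3.36 and -0.80 in these 5 genes whichever array was left out. Without tumour 1 the 5 calls were kept and Mx1 (lower) and Irgm1 (higher) were added, against 6.85% of all genes lower and 6.08% higher. Without tumour 2 the 5 were kept and Ifit1, Ifit3, Ifitm3 and Oasl2 were added, all lower, so 9 of 38 members were called lower and 0 higher, against 6.31% and 4.60% of all genes.

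**Figure D3:**
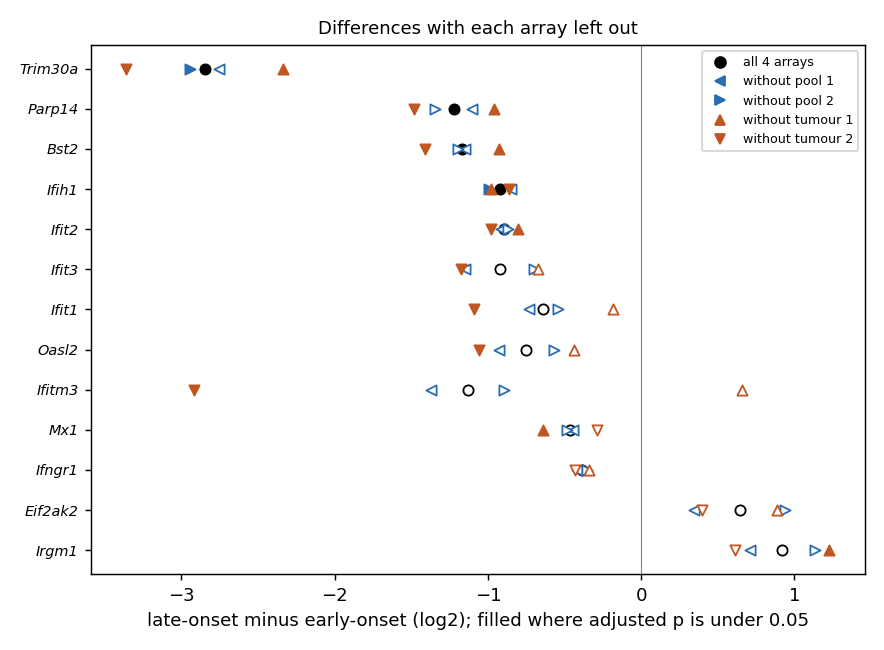
Late-onset minus early-onset difference (log2) of 13 members with all 4 arrays (circles) and with each array left out in turn (triangles); filled symbols have an adjusted p under 0.05. Ifitm3 moves from -2.92 without tumour 2 to 0.66 without tumour 1, while the other 12 keep their sign.

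The late-onset tumours also differed from each other across the list. Of the 38 members 31 were higher in tumour 2 than in tumour 1, against 50.5% of all genes, with a median gap of 0.25 against 0.00. The gap was over 0.5 in either direction for 9 members (23.7%), against 6.45% of all genes. Between the pools it was over 0.5 for 2 members, against 720 of the 19937 genes. Of the 38 members 25 were higher in pool 2 than in pool 1, against 10673 of the 19937 genes, with a median gap of 0.07 against 0.02. Besides Ifitm3 the widest gaps were those of Trim30a (1.02), Ifit1 (0.91) and Iigp1 (0.81). Of the 25 microglia and macrophage markers 21 were also higher in tumour 2, at a median gap of 0.75. The members' median difference was -0.25 without tumour 1 and -0.36 without tumour 2, and 26 and 35 of the 38 means were then lower. Each tumour is a sample of its own, so this gap has no replicate and no test.

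**Figure D4:**
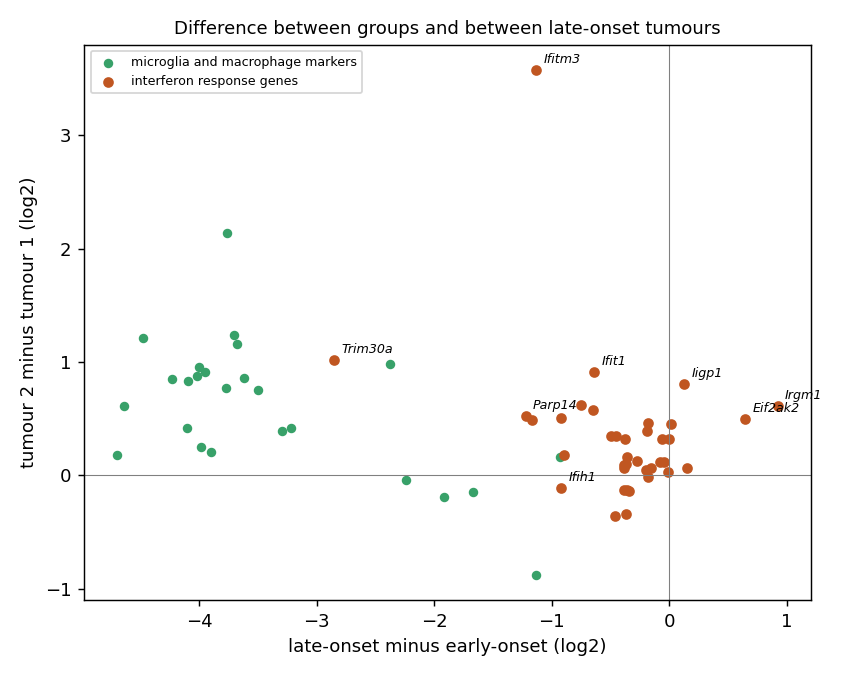
Tumour 2 minus tumour 1 (log2) against late-onset minus early-onset (log2) for 38 interferon response genes and 25 microglia and macrophage markers. Most points of both sets lie above 0 on the vertical axis. Ifitm3 stands alone at 3.58 on that axis, and Trim30a lies at -2.85 and 1.02.

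The rest of the pathway was read from 136 further genes, of which 108 were measured. Together 28 fell and 3 rose (25.9% lower against 8.12% of all genes), at a median of -0.25. Without pool 1, 13 of them fell, and without pool 2, 14. Of 15 measured interferon genes themselves 0 were called. At an unadjusted p under 0.05, 1 was lower and 1 higher, against 15.4% and 14.5% of all genes. Ifnb1, the interferon beta gene, read 5.99 and 5.19 in the pools and 4.66 and 4.48 in the tumours (-1.02, adjusted p 0.066), and Ifng, the interferon gamma gene, stood at 0.31 (0.116). The medians of these 15 probe sets lay between 5.24 and 5.43 on the 4 arrays, and 1 of them, Ifna5, lay above the median level of all genes (7.75 and 7.97 in the pools, 7.87 and 7.52 in the tumours). Array data alone do not show whether an interferon was made.

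Of 12 genes of Janus kinase and STAT signalling 2 fell and 2 rose, against 8.12% of all genes lower and 6.59% higher. Ptpn6, the phosphatase SHP-1 of blood cells, fell by 1.48 (adjusted p 0.00462) and the kinase gene Jak1 by 0.46 (0.0458). The phosphatase gene Ptpn2 and the feedback inhibitor gene Socs3, which both limit such signalling, rose by 0.85 (0.0275) and 0.56 (0.0287).

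Of 15 genes of nucleic acid sensing 6 fell (40.0%) and 0 rose, against 8.12% of all genes lower and 6.59% higher. Tlr7, an endosomal RNA receptor, fell by 3.63, Unc93b1, which carries such receptors to endosomes, by 2.16, Irf5 by 1.41 and the kinase gene Ikbke by 1.20 (adjusted p 0.00191 to 0.00960). Of 52 further interferon-stimulated genes 17 fell (32.7%) and 1 rose, at a median of -0.41. The chemokine gene Cxcl10 fell by 4.02 (adjusted p 0.0162) from 11.41 and 9.68 in the pools to 6.04 and 7.01 in the tumours. Lgals3bp fell by 3.45 and the lysosomal thiol reductase gene Ifi30 by 2.18. Mlkl, the effector of necroptosis, went the other way and rose by 2.19 (SE 0.28, adjusted p 0.0103). MHC class I presentation was read from 14 genes and 3 of them fell (21.4%). These were Tapbp (-1.21), which tethers empty class I molecules, Tap2 (-1.17), a peptide transporter subunit, and Erap1 (-0.68), which trims peptides.

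**Figure D5:**
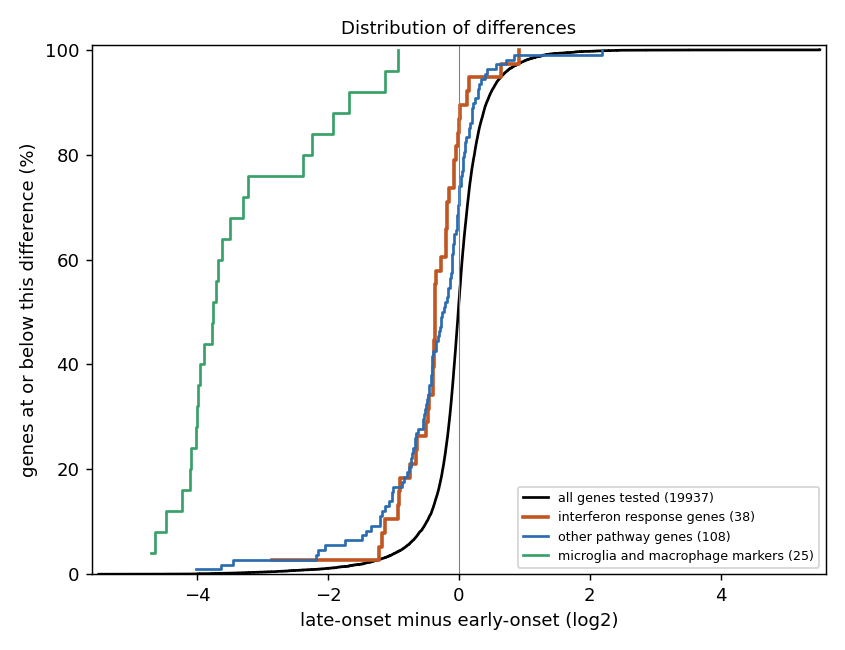
Cumulative share of genes (%) by late-onset minus early-onset difference (log2) for all 19937 genes tested, 38 interferon response genes, 108 other pathway genes and 25 microglia and macrophage markers. The curve of the interferon response genes (median -0.36) lies slightly left of all genes (median -0.01) and far right of the markers (median -3.76).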

How the data were processed

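RNA of 4 sorted samples was measured on an Affymetrix mouse gene array. The deposited values are log2 probe set summaries, and the submitters' processing notes name RMA and affy 3.4.2 without settings. RMA equalises arrays at the level of probes, which can hide a shift common to most genes, although medians of the deposited arrays still ran from 6.63 to 6.71. It understates changes of dim genes. Of 34760 probe sets 21640 named a single gene, 1321 several and 11799 none in the platform annotation; only the first were used. Groups came from the sample titles, which call the samples biological replicates. The fit used lmFit and eBayes of limma 3.58.1 (R 4.3.3) with neither trend, robust option nor filter. It was also run on simulated independent genes with equal variance on all arrays. That run does not cover the unlike spread of pools and single tumours. Precision is limited by having 2 arrays per group. Members with a call, a call under an alternative or an absolute difference of at least 1 were described in full. Other lists gave up to 4 called genes by size, or 2 by moderated t where none was called. The members and lists were chosen with earlier results of these data known. Promoters were read from RefSeq GRCm38.p6 windows. Alternatives covered the variance model, dim genes, scaling, probe set choice, array weights, a replicate block, left-out arrays, thresholds and a longer motif.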

Additional observations from a re-analysis of the deposited data

How the results depend on the processing

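Over the 322 values of single members under settings that kept all arrays and added no block, 316 kept their direction and their side of the threshold. Ifngr1 gained a call in 3 of them, and Ifnar1 (0.043), Ifi27 (0.054) and Ifi35 (0.014) changed sign when each array's median was subtracted. Among genes above the median level, 3 of 21 interferon response genes (14.3%) were called lower, against 12.5% of all 9968 genes, and 12 other pathway genes. At adjusted p thresholds of 0.1 and 0.01, 12 and 3 members were called lower and 1 and 0 higher. With the replicate number as a block, 6 members were called lower and 2 higher, and 18 other pathway genes lower, against 5.46% of all genes lower and 3.73% higher; Ifit3, Oasl2, Eif2ak2 and Irgm1 were gained and Parp14 lost. The labels do not say that the numbers pair samples, and same-numbered deviations correlated at -0.04 across genes. With 1 array left out, the lone sample of a group is assumed to vary like the other group. Members called lower then ranged from 0 to 9 and higher from 0 to 1, and other pathway genes from 13 to 24 lower and from 0 to 5 higher. The members' median ranged from -0.36 to -0.25. Differences that changed sign ranged from -0.22 to 0.24 for Usp18, -0.28 to 0.53 for Iigp1, -0.16 to 0.16 for Ifi27, -0.031 to 0.0017 for Ifnar1, -0.23 to 0.10 for Ifnar2, -0.41 to 0.053 for Gbp3, -2.92 to 0.66 for Ifitm3, -0.38 to 0.0036 for Xaf1 and -0.10 to 0.014 for Ifi35. The causes of these changes were not tested. The response element motif with a C added at its end was found for 14 of the 34 members with a window.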

Other observations

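Irf8 and Dhx58 were chosen after their values were seen. Irf8, which encodes a transcription factor of microglia and dendritic cells, read 8.89 and 8.91 in the pools and 8.75 and 8.89 in the tumours (-0.08, adjusted p 0.679 by limma), while 24 of 25 microglia and macrophage markers fell. Dhx58, which encodes LGP2, a relative of the sensors MDA5 and RIG-I, read 6.19 and 6.07 in the pools and 5.34 and 5.39 in the tumours and fell by 0.76 (adjusted p 0.0112).

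Promoters with the response element motif and a C added at its end were found for 139 tested genes, 12 of them members. Of the 139, 14.4% were lower and 2.16% higher in late-onset cells, against 8.05% and 6.59% of the 15474 without it. The shorter motif did not show this split as widely, with 9.23% lower and 5.77% higher among 607 genes. These shares were not tested.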
